A study of Homo sapiens with 54 samples.

Results

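The genes described here are 9 targets of the transcription factor NRF2 that serve the glutathione and thioredoxin systems: GCLC, GCLM, SLC7A11, TXNRD1, TXN, SRXN1, PRDX1, GPX2 and OSGIN1. Each symbol matched 1 gene of the 58870 genes in the table of counts. All 9 passed the filter on low counts, which kept 16836 genes for testing.

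RNA was sequenced from A549, an established human lung cancer cell line, stably carrying either an empty vector or a vector for USP18, a protease that removes the ubiquitin-like protein ISG15 from other proteins. Cells of both kinds were treated for 48 h with the vehicle DMSO or with a compound known in the labels by its code alone: CP2 at 2 or 5 µM, CP14 at 1, 2.5 or 5 µM, or CP18 at 1, 2.5 or 5 µM. This gave 18 groups of 3 libraries, 54 in all, with 16673228 to 25609062 counts per library (median 19701304). The labels do not say whether the stable cells are clones or pools, nor whether replicates were separate cultures, so the p-values measure only the spread between these libraries.

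NRF2 is made continuously and, in unstressed cells, bound by KEAP1 and degraded. Oxidants and electrophiles, quinones among them, modify KEAP1, and NRF2 then pairs with a small MAF protein on antioxidant response elements near its targets. A549 cells carry a KEAP1 mutation that leaves NRF2 active without treatment, and therefore express many of these genes at a high level. The glutathione arm takes in cystine through SLC7A11, joins cysteine to glutamate with the enzyme of GCLC (catalytic subunit) and GCLM (modifier subunit), and spends glutathione on peroxides through peroxidases such as GPX2. The thioredoxin arm passes electrons from NADPH through TXNRD1 to TXN and on to peroxiredoxins such as PRDX1, while SRXN1 (sulfiredoxin) restores peroxiredoxins that have been over-oxidised. OSGIN1 is an oxidative stress response gene known as a growth inhibitor, and GPX2 and TXNRD1 are selenoproteins.

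The genes lie on 8 chromosomes of GRCh38, with coordinates from GENCODE release 44. GCLC (ENSG00000001084.12) is at chr6:53497341-53616970, GCLM (ENSG00000023909.10) at chr1:93885199-93909456 and SLC7A11 (ENSG00000151012.13) at chr4:138164097-138242349. TXNRD1 (ENSG00000198431.16) is at chr12:104215779-104350307, TXN (ENSG00000136810.13) at chr9:110243810-110256507, SRXN1 (ENSG00000271303.1) at chr20:646615-653200 and PRDX1 (ENSG00000117450.14) at chr1:45510914-45542732. GPX2 (ENSG00000176153.12) is at chr14:64939152-64942746 and OSGIN1 (ENSG00000140961.13) at chr16:83931311-83966332. OSGIN1 shares 457 exon bases with MLYCD on the same strand, and MLYCD held 16.4% as many counts as OSGIN1. GCLC shares 529 exon bases with a lncRNA of the same strand that held 3.39% as many counts, and SRXN1 shares 2292 exon bases with a protein-coding gene of the same strand, ENSG00000270299, that held 0.00856% as many. A part of the counts of these genes may be assigned to the neighbour or the reverse.

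Promoter windows from RefSeq (GRCh38.p14, 250 bases before to 50 after a start) matched 7 of the 9 genes, in 8 windows, and were searched on both strands for the antioxidant response element core TGACNNNGC. It was in 4 of the 8 windows, those of GCLM, GPX2 and both starts of TXNRD1, and in 13.3% of 35116 windows of all genes. The upstream window of TXNRD1 held matches at -99 and -8 from the start, and only the former is printed below. The AP-1 site TGACTCA was in 1 of the 8, that of OSGIN1, and in 4.95% of all windows, and the C/EBP-ATF core TGATGNAA was in 0 of the 8 and in 3.62% of all. SLC7A11 and PRDX1 had no window. The stretches around 4 of the element matches are printed because NRF2 acts through that element, with the match in capitals. Each is read 5′ to 3′ in the direction of transcription, at chr1:93909436-93909484 (minus strand) for GCLM, chr14:64942839-64942887 (minus) for GPX2, and chr12:104215660-104215708 and chr12:104286910-104286958 (both plus) for TXNRD1.
GCLM: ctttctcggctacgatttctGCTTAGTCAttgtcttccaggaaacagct
GPX2: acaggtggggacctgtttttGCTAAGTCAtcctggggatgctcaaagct
TXNRD1, upstream start: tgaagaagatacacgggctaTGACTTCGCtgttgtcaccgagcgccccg
TXNRD1, downstream start: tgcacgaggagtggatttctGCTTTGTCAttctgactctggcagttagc
A match describes the letters in a window and does not show that NRF2 binds there. Sequence outside the windows was not searched, so a window without a match does not show that the gene lacks the element.

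Levels are given as TMM-scaled CPM, the share of a library's counts times 1e6 after scaling between libraries, and the plot of levels in every library shows them for all 18 groups. Levels of different genes were ranked only per kilobase of transcript, and ratios of genes in CPM were compared only between groups. In empty-vector cells with vehicle these were 1000 CPM per kb ± 7.45 for PRDX1 (SD, n = 3), 548 ± 12.6 for TXN, 479 ± 8.62 for TXNRD1 and 364 ± 20.7 for GPX2. SRXN1 stood at 186 ± 6.26 CPM per kb and GCLC at 79.1 ± 1.46, with SLC7A11, GCLM and OSGIN1 lowest at 41.8 ± 1.3, 40.9 ± 1.43 and 34.5 ± 1.32. The peroxide-removing and thioredoxin genes were thus the most abundant, and those of glutathione synthesis the least abundant beside OSGIN1. The lowest count of any of the 9 genes in any library was 182, for GPX2 in USP18 cells with 5 µM CP14.

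**Figure D1:**
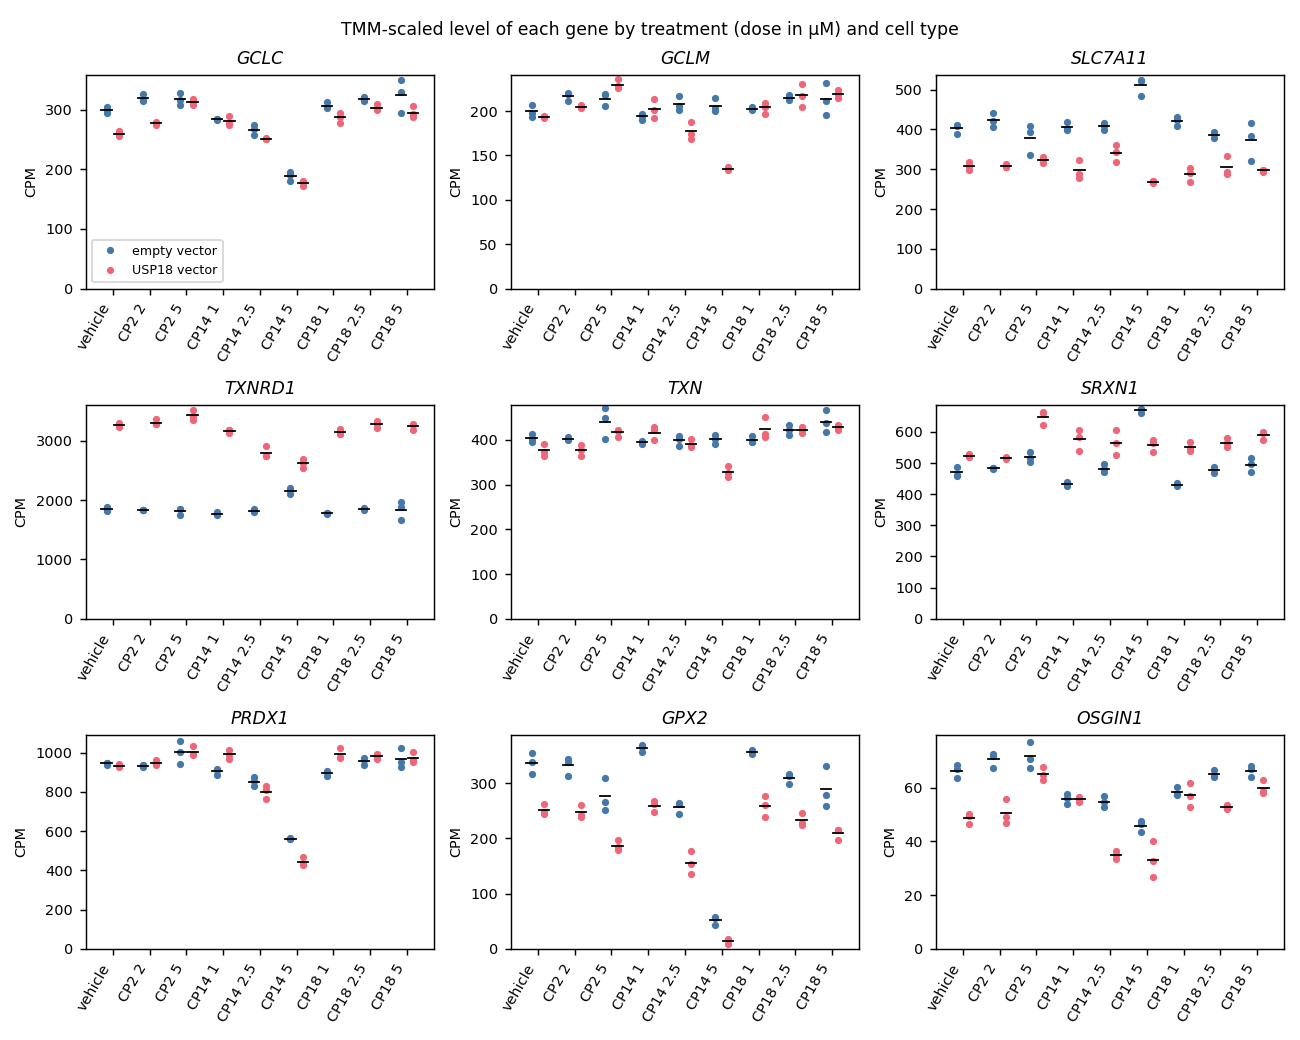
Level of each of the 9 genes (TMM-scaled CPM, linear axis from 0) in all 54 libraries, by compound and dose in µM, with empty-vector and USP18 cells side by side; points are libraries and short lines are means of 3. GPX2 falls from 316 to 354 CPM with vehicle to 43.4 to 58.2 with 5 µM CP14 in empty-vector cells, and TXNRD1 is higher in every USP18 library than in every empty-vector library.

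Some libraries stood apart from their group. In the 3rd library of CP18 at 5 µM in empty-vector cells, 4 of the 9 genes lay more than 0.2 (log2) from the mean of the other libraries of the group, and SLC7A11 was 320.5 CPM there against up to 417 in the same group. The 1st library of that group held 2 such genes, SLC7A11 being farthest, the 3rd library of CP2 at 5 µM in empty-vector cells 2, GPX2 being farthest, and the 1st and 3rd of CP14 at 5 µM in USP18 cells 2 each. A single such gene was in 6 other libraries: GPX2 in the 2nd of that group, the 1st and 3rd of CP14 at 2.5 µM in USP18 cells and the 1st and 2nd of CP14 at 5 µM in empty-vector cells, and OSGIN1 in the 1st of CP2 at 2 µM in USP18 cells. With 5 µM CP14 in USP18 cells GPX2 ranged from 9.01 to 17.4 CPM and OSGIN1 from 26.8 to 40.1. All of these libraries were kept.

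The first comparison asked how USP18 cells differ from empty-vector cells with vehicle alone. TXNRD1, the reductase of the thioredoxin arm, was higher in USP18 cells, while GCLC, SLC7A11, TXN, GPX2 and OSGIN1 were lower, SRXN1 was slightly higher, and GCLM and PRDX1 did not pass the test. Here and below, a gene changed when its Benjamini-Hochberg adjusted p over all 16836 genes was under 0.05 in edgeR's quasi-likelihood test, and 7 of the 9 did so here, beside 51.2% of all genes tested. USP18 itself was 10.6, 10.7 and 11.1 CPM in the empty-vector libraries and 1302, 1292 and 1328 CPM in the USP18 libraries (log2 fold change 6.92 ± 0.0579, SE).

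TXNRD1 was 1839, 1824 and 1888 CPM in the empty-vector libraries with vehicle and 3265, 3237 and 3290 CPM in the USP18 libraries. The sets were far apart relative to their spread, and the difference was 1.76-fold (log2 0.82 ± 0.0328, SE, adjusted p = 1.6e-26). Over all treatments, the lowest of the 27 USP18 libraries held 2539 CPM and the highest of the 27 empty-vector libraries 2195 CPM. TXN, the substrate of that reductase, was 402, 396 and 414 CPM in empty-vector cells and 364, 392 and 374 CPM in USP18 cells, so the ratio of TXNRD1 to TXN in CPM went from 4.58 ± 0.0258 to 8.67 ± 0.367 (SD, n = 3). The TXN difference (log2 -0.10, adjusted p = 0.038) lost its call without the 1st or 3rd empty-vector library (-0.10 and -0.08) or the 1st or 3rd USP18 library (-0.08 and -0.09), and with no filter on low counts (adjusted p = 0.099).

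SLC7A11, the cystine carrier, was 411, 389 and 409.8 CPM in empty-vector cells and 307, 318 and 298 CPM in USP18 cells (log2 -0.39, adjusted p = 4.6e-07). OSGIN1 went from a mean of 66.3 to 48.7 CPM (log2 -0.45, adjusted p = 2.7e-07) and GPX2 from 336 to 251 CPM (log2 -0.42, adjusted p = 5.2e-05). The libraries of the 2 kinds of cells did not overlap for 7 of the 9 genes, these 3 among them, beside 59.2% of all genes. GCLC was lower by a smaller step (log2 -0.21, adjusted p = 5.1e-06), and its partner GCLM had a log2 difference of -0.05 with a 95% interval of -0.14 to 0.04. The ratio of GCLC to GCLM in CPM was 1.5 with the empty vector and 1.35 with USP18.

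The next comparisons set each compound and dose against vehicle within each kind of cell. The highest dose of CP14 moved the 9 genes most: GPX2 and PRDX1 fell in both kinds of cells, GCLC and OSGIN1 fell in both by less, and SLC7A11, TXNRD1 and SRXN1 rose in empty-vector cells. In USP18 cells the same dose lowered 8 of the 9 and raised SRXN1 slightly. It changed 7 of the 9 genes in empty-vector cells, beside 60.9% of all genes tested, and 9 of 9 in USP18 cells, beside 65.6%. The median log2 fold change of the 9 was -0.01 with the empty vector and -0.51 with USP18, against 0.00 and 0.01 over all genes tested. All comparisons with vehicle in a kind of cell share the same 3 vehicle libraries.

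GPX2, the selenium-dependent glutathione peroxidase whose promoter stretch is printed above, was 354, 338 and 316 CPM with vehicle and 58.2, 43.4 and 55.4 CPM with 5 µM CP14 in empty-vector cells. In USP18 cells it was 247, 244 and 262 CPM with vehicle and 17.4, 9.01 and 15.4 CPM with the compound. Every treated library was far below every vehicle library. Its level came to 0.155 of vehicle in empty-vector cells (log2 -2.69 ± 0.0981, SE, adjusted p = 1.8e-28) and to 0.0555 of vehicle in USP18 cells (log2 -4.17 ± 0.117, adjusted p = 2.6e-33). At 2.5 µM the fall was smaller, from a mean of 336 to 257 CPM in empty-vector cells (log2 -0.39, adjusted p = 0.0013) and from 251 to 156 CPM in USP18 cells (log2 -0.69, adjusted p = 1.6e-08). At 1 µM the means were 363 and 259 CPM, with log2 fold changes of 0.11 and 0.04 that did not pass the test.

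PRDX1, a peroxiredoxin that reduces hydrogen peroxide, was 949, 937 and 949 CPM with vehicle and 566, 559 and 559 CPM with 5 µM CP14 in empty-vector cells. In USP18 cells it was 926, 935 and 942 CPM with vehicle and 433, 429 and 467 CPM with the compound. Its level came to 0.594 of vehicle in empty-vector cells (log2 -0.75 ± 0.0349, SE, adjusted p = 2.5e-24) and to 0.474 of vehicle in USP18 cells (log2 -1.08 ± 0.0351, adjusted p = 1.2e-30). Beside GPX2, PRDX1 was the only member past 2-fold in either kind of cell, and only in USP18 cells. At 2.5 µM it fell by 0.15 on the log2 scale in empty-vector cells (adjusted p = 0.0021) and by 0.22 in USP18 cells (adjusted p = 1.4e-06).

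The subunits of glutamate-cysteine ligase parted in empty-vector cells. GCLC was 299, 294 and 305 CPM with vehicle and 196, 181 and 191 CPM with 5 µM CP14 (log2 -0.66 ± 0.0372, SE, adjusted p = 4.4e-21), while GCLM was 198, 193 and 207 CPM and then 203, 200.1 and 215 CPM (log2 0.05, 95% interval -0.04 to 0.13, adjusted p = 0.37). Their ratio went from 1.5 ± 0.0249 to 0.919 ± 0.0412 (SD, n = 3), and no library of the treated group reached a vehicle library. In USP18 cells GCLC fell from 264, 256 and 260.2 to 178, 172 and 181 CPM (log2 -0.55, adjusted p = 3.3e-18) and GCLM from 194, 193 and 192 to 134, 135 and 137 CPM (log2 -0.51, adjusted p = 1.4e-14). There the ratio was 1.35 ± 0.0198 with vehicle and 1.31 ± 0.0326 with the compound, so both subunits moved down together.

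SLC7A11 was 525, 485 and 522 CPM with 5 µM CP14 in empty-vector cells, above its vehicle libraries at 389 to 411 CPM (log2 0.34 ± 0.061, SE, adjusted p = 3.8e-06). In USP18 cells it was 271, 270.2 and 265 CPM, below vehicle libraries at 298 to 318 CPM (log2 -0.19 ± 0.0622, adjusted p = 0.0058). TXNRD1 showed the same split, with 2195, 2105 and 2175 CPM in empty-vector cells, above vehicle (log2 0.22, adjusted p = 7.3e-08), and 2686, 2539 and 2624 CPM in USP18 cells, below vehicle (log2 -0.32, adjusted p = 3.7e-12). The carrier and the reductase thus moved up without and down with the USP18 vector. TXN had a log2 fold change of -0.01 in empty-vector cells (95% interval -0.09 to 0.07), and in USP18 cells it fell, with a value of -0.20 (adjusted p = 3.8e-05).

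SRXN1 was 463, 459.8 and 489 CPM with vehicle and 659.6, 673 and 675 CPM with 5 µM CP14 in empty-vector cells (log2 0.51 ± 0.0379, SE, adjusted p = 1.6e-16), the largest rise of the 9 genes in any comparison with vehicle. In USP18 cells it was 528, 519.5 and 526 CPM with vehicle and 575, 535 and 564 CPM with the compound (log2 0.09, adjusted p = 0.033). That call was lost without the 2nd or 3rd vehicle library (0.08 and 0.09) or the 1st or 3rd treated library (0.07 and 0.08), and with no filter on low counts (adjusted p = 0.14). OSGIN1 fell in both kinds of cells, from 63.5 to 68.4 CPM to 43.6 to 47.7 CPM in empty-vector cells (log2 -0.53, adjusted p = 4.6e-09) and from 46.6 to 50.1 CPM to 26.8 to 40.1 CPM in USP18 cells (log2 -0.56, adjusted p = 4.7e-09).

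**Figure D2:**
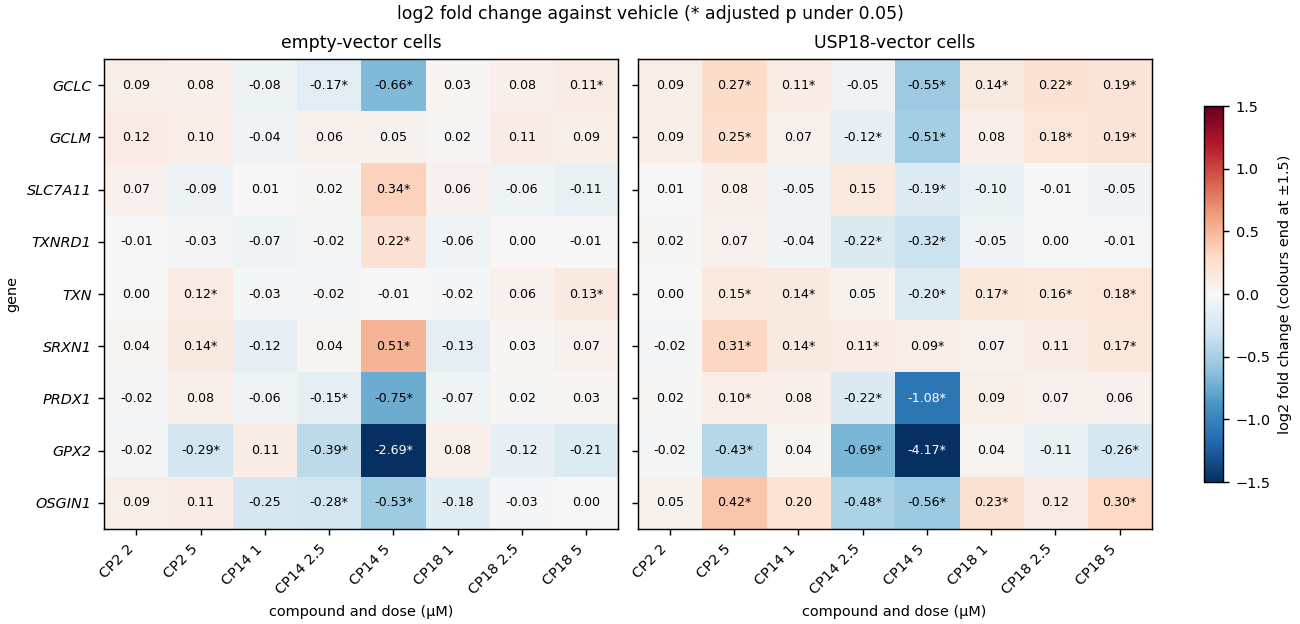
Log2 fold change of each gene (vertical) against vehicle for each compound and dose in µM (horizontal), in empty-vector cells on the left and USP18 cells on the right, with a star where the adjusted p was under 0.05; colours end at ±1.5. The column of 5 µM CP14 holds the largest values, GPX2 at -2.69 and -4.17, and SLC7A11 and TXNRD1 have opposite signs in the panels.

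With CP14 at 2.5 µM 4 of the 9 changed in empty-vector cells, beside 13.2% of all genes: GCLC (log2 -0.17), PRDX1, GPX2 and OSGIN1 (-0.28) fell. In USP18 cells 6 changed, beside 29.7%: GCLM (-0.12), TXNRD1 (-0.22), PRDX1, GPX2 (-0.69) and OSGIN1 (-0.48) fell and SRXN1 rose by 0.11. The GCLM call was lost without the 1st or 2nd vehicle library (-0.12 and -0.12) or the 2nd or 3rd treated library (-0.11 and -0.09). That of SRXN1 was lost without the 2nd vehicle library (0.10) or the 1st treated library (0.06), with no filter on low counts (adjusted p = 0.052) and with only the groups compared (adjusted p = 0.067). SLC7A11 passed at 0.14 to 0.15 with no filter (adjusted p = 0.0041), with at least 10 counts in every library (0.045), in the fit of 12 libraries (0.0070) and with only the groups compared (0.020), and at 0.20 without the 3rd treated library (0.023). At 1 µM 0 of the 9 changed in empty-vector cells by edgeR, beside 0.202% of all genes, with 4 at an unadjusted p under 0.05. DESeq2 called 1, beside 87 of 58870 genes. This was OSGIN1 at -0.25 (adjusted p = 0.035), which also passed with no filter (7.6e-04) and in the fit of 12 libraries (0.0069). In USP18 cells 3 rose at 1 µM, beside 10.6%: GCLC by 0.11, TXN by 0.14 and SRXN1 by 0.14 on the log2 scale. The GCLC call was lost with RLE size factors (adjusted p = 0.056) and with no filter on low counts (0.12). OSGIN1 passed there at 0.19 to 0.20 with no filter (adjusted p = 0.013), by DESeq2 (0.033) and in the fit of 12 libraries (0.0039). The count of 3 in the main fit became 1 without any 1 vehicle library and 0 without the 1st or 2nd treated library.

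At 5 µM CP2 and CP18 raised GCLC, GCLM and TXN in USP18 cells, by small steps, and lowered GPX2. With 5 µM CP2, 7 of the 9 changed in USP18 cells, beside 18.8% of all genes, OSGIN1 rising by 0.42 on the log2 scale, SRXN1 by 0.31, GCLC by 0.27, GCLM by 0.25, TXN by 0.15 and PRDX1 by 0.10. GPX2 was 185, 179 and 197 CPM there against 247, 244 and 262 CPM with vehicle (log2 -0.43 ± 0.0876, SE, adjusted p = 2.8e-04). The TXN call was lost without the 1st vehicle library (0.12), and the PRDX1 call without the 1st or 2nd vehicle library or the 3rd treated library (0.08) and under either other filter on low counts (adjusted p = 0.064 and 0.055), and both were lost in the fit of 12 libraries (adjusted p = 0.050 and 0.092). With 5 µM CP18 6 changed, beside 15.3%: OSGIN1 rose by 0.30, GCLC by 0.19, GCLM by 0.19, TXN by 0.18 and SRXN1 by 0.17, and GPX2 fell by 0.26 (adjusted p = 0.033), a call lost in 5 of the 6 fits without a library of either group (all but the 3rd treated library, -0.29 to -0.22) and by DESeq2 (adjusted p = 0.056).

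In empty-vector cells with 5 µM CP2 3 of the 9 changed, beside 11.8% of all genes, TXN at 0.12, SRXN1 at 0.14 and GPX2 at -0.29 on the log2 scale. This count was 0 without the 2nd vehicle library or the 2nd treated library and 1 without the 1st vehicle library. Without the 1st treated library PRDX1 passed at 0.13 and GPX2 did not (-0.26), and without the 3rd, which stood apart, TXN did not (0.07, adjusted p = 0.36). The TXN call was also lost with no filter on low counts (adjusted p = 0.11), in the fit of 12 libraries (0.085) and with only the groups compared (0.18). With only the groups compared that of SRXN1 was lost as well (adjusted p = 0.055). With 5 µM CP18 2 changed, beside 13.0%, GCLC at 0.11 and TXN at 0.13, and the count was 0 without the 1st or 2nd vehicle library or the 2nd treated library. Without the 3rd treated library, which stood apart, it was 3: GPX2 passed at -0.32 (adjusted p = 0.012) and GCLM at 0.15 (adjusted p = 0.018), GCLC stayed, and TXN was lost (0.08, adjusted p = 0.23). Without the 1st treated library SLC7A11 passed at -0.20 and GCLC was lost (0.10). With no filter on low counts GPX2 passed at -0.22, and GCLC and TXN did not (adjusted p = 0.11 and 0.052). For neither compound did a difference from USP18 cells pass in the main edgeR fit, and the interactions that passed otherwise are given below.

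Lower doses of CP18 raised GCLC and TXN in USP18 cells. At 1 µM 3 of the 9 changed, beside 11.8% of all genes, with GCLC at 0.14, TXN at 0.17 and OSGIN1 at 0.23 on the log2 scale, and 0 did so without the 3rd treated library (0.12, 0.12 and 0.18), while OSGIN1 was also lost without the 1st vehicle library (0.20). At 2.5 µM 3 changed, beside 9.84%, with GCLC at 0.22, GCLM at 0.18 and TXN at 0.16, GCLM being lost without the 3rd treated library (0.13) and TXN without the 1st vehicle library (0.14). In empty-vector cells 0 of the 9 changed by edgeR with CP18 at 1 µM, beside 0% of all genes, or at 2.5 µM, beside 3.15%. There 3 and 2 of the 9 had an unadjusted p under 0.05, and DESeq2 called 0 and 0. With 2 µM CP2, 0 of the 9 changed by edgeR in empty-vector cells, beside 0.558%, or in USP18 cells, beside 0.434%, with 2 and 2 at an unadjusted p under 0.05 and 0 and 0 called by DESeq2.

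Whether a response differed between the kinds of cells was tested as the interaction, the log2 fold change in USP18 cells minus that in empty-vector cells. At 5 µM CP14 it passed the test for 7 of the 9 genes, each with a negative value. Of all genes 26.4% passed in either direction, 13.8% with a negative and 12.7% with a positive value. GPX2 differed most (log2 -1.49 ± 0.157, SE, adjusted p = 1.6e-10), from a steep fall to a steeper one. GCLM (-0.56, adjusted p = 5.1e-10), TXNRD1 (-0.54, adjusted p = 3.5e-13) and SLC7A11 (-0.53, adjusted p = 3.5e-06) were next, and for the last pair the sign of the response itself turned. SRXN1 (-0.42, adjusted p = 2.2e-08) rose by less in USP18 cells, PRDX1 (-0.33, adjusted p = 8.1e-07) fell by more, and TXN (-0.19, adjusted p = 0.011) fell there by 0.20 against a value of -0.01 in empty-vector cells. For GCLC the difference was 0.11 (adjusted p = 0.13, unadjusted p = 0.044 in the same edgeR test) and for OSGIN1 -0.03 (95% interval -0.23 to 0.18).

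**Figure D3:**
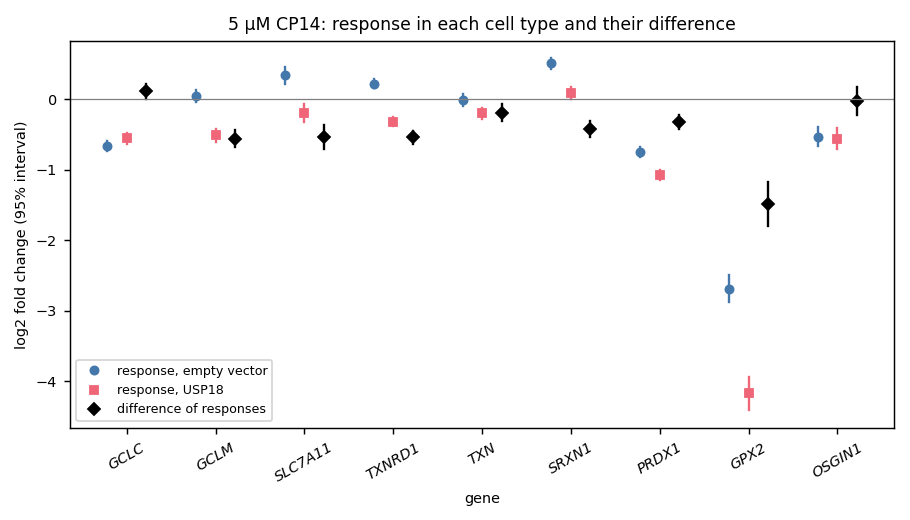
Log2 fold change with 5 µM CP14 in empty-vector and USP18 cells for each gene, with the difference of the responses, each with its 95% interval. The difference is negative and past the test for 7 genes, and did not pass for GCLC (0.11) and OSGIN1 (-0.03).

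At 1 and 2.5 µM 7 interactions passed, 6 of them positive. At 1 µM CP14 3 of the 9 passed, beside 1.86% of all genes: OSGIN1 (0.44), SRXN1 (0.25) and GCLC (0.19), and the GCLC call held in only 2 of the 12 fits without a library of the 4 groups (0.16 to 0.20) and not with RLE size factors (adjusted p = 0.055), no filter (0.059) or the replicate block (0.051). TXN (0.17) and PRDX1 (0.14 to 0.15) passed by DESeq2 (adjusted p = 0.039 for both) and in the fit of 12 libraries (0.022 and 0.012). At 1 µM CP18 3 passed, beside 4.35%: OSGIN1 (0.42), SRXN1 (0.20) and PRDX1 (0.16). Their count was 1 without the 3rd empty-vector vehicle library or the 1st empty-vector CP18 library and 0 without the 3rd USP18 library with CP18, SRXN1 was also lost without the 2nd USP18 vehicle library (0.19), and PRDX1 held in only 2 of the 12 fits (0.13 to 0.17) and not with RLE size factors (adjusted p = 0.055) or no filter (0.066). TXN passed there by DESeq2 (0.18, adjusted p = 0.022), with no filter (0.19, adjusted p = 0.029), in the fit of 12 libraries (0.18, adjusted p = 0.037) and in 3 fits without a library (0.20 to 0.21). At 2.5 µM CP14 1 passed, beside 7.30%, TXNRD1 at -0.20 (adjusted p from the quasi-likelihood test over all genes). GCLM passed there by DESeq2 (-0.19, adjusted p = 0.027), with at least 10 counts in every library (-0.18, adjusted p = 0.038) and in 3 fits without a library (-0.23 to -0.21), and GPX2 with no filter (-0.30, adjusted p = 3.1e-05) and in 1 fit without a library (-0.41).

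The remaining interactions gave 0 of the 9 by edgeR, for 2 µM CP2 beside 0.00594% of all genes, 5 µM CP2 beside 0.843%, 2.5 µM CP18 beside 0.0297% and 5 µM CP18 beside 0.719%. At an unadjusted p under 0.05 these held 0, 5, 1 and 1 of the 9. DESeq2 called 0, 2, 0 and 0, beside 1, 274, 20 and 199 of 58870 genes. With no filter on low counts the OSGIN1 interaction passed in edgeR for 5 µM CP2 (0.33, adjusted p = 0.0030) and 5 µM CP18 (0.30, adjusted p = 0.017), and DESeq2 called GCLC (0.18) and OSGIN1 (0.31) for 5 µM CP2.

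The USP18 gene, overexpressed in USP18 cells, also moved with treatment. It was 1302, 1292 and 1328 CPM with vehicle and 1965, 2115 and 2062 CPM with 5 µM CP14 in USP18 cells (log2 0.65 ± 0.0394, SE, adjusted p = 7.2e-20). The part of this change in the interactions was not tested.

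Compounds were compared with each other at equal doses in 10 pairs of groups, with p adjusted over all genes in each pair. CP14 differed from both other compounds at 5 µM, and CP18 and CP2 were not told apart in the main edgeR fit for any of the 9 genes. In empty-vector cells 8 of the 9 differed between CP14 and CP18 at 5 µM, beside 58.9% of all genes, and 8 between CP14 and CP2, beside 58.7%. In USP18 cells these numbers were 8, beside 65.5%, and 9, beside 66.1%. GPX2 with 5 µM was 259, 278 and 331 CPM for CP18 and 58.2, 43.4 and 55.4 CPM for CP14 in empty-vector cells (log2 -2.47 ± 0.0983, SE, adjusted p = 6.4e-27), and 197, 215 and 216 CPM against 17.4, 9.01 and 15.4 CPM in USP18 cells (log2 -3.91 ± 0.117, adjusted p = 4.7e-32). PRDX1 was lower with CP14 than with CP18 by log2 -0.79 and -1.14 in empty-vector and USP18 cells.

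Between these compounds SLC7A11 was higher with CP14 in empty-vector cells (log2 0.45, adjusted p = 1.1e-08). With the USP18 vector it was at -0.14 (adjusted p = 0.040), a call lost in all 6 fits without a library (-0.15 to -0.13), with RLE size factors (adjusted p = 0.056), by DESeq2 (0.078) and with at least 10 counts in every library (-0.11, adjusted p = 0.084). SRXN1, not called in USP18 cells, passed with only the groups compared (-0.10, adjusted p = 0.036). It also passed without the 1st CP14 library (-0.11, adjusted p = 0.027) or the 2nd CP18 library (-0.10, adjusted p = 0.033). GCLM was not told apart in empty-vector cells (log2 -0.05, 95% interval -0.13 to 0.04, and -0.10 with adjusted p = 0.048 without the 3rd CP18 library) and was lower with CP14 in USP18 cells (-0.70, adjusted p = 2.3e-19). TXN was lower with CP14 than with CP18 in empty-vector cells by -0.13, and this call was lost without the 3rd CP18 library (-0.09). The like difference from CP2 (-0.13) was lost without the 3rd CP2 library (-0.08) and with only the groups compared (adjusted p = 0.056).

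At 2.5 µM CP14 and CP18 differed for 3 of the 9 in empty-vector cells, beside 2.33% of all genes: GCLC (-0.25, adjusted p = 1.3e-05), PRDX1 (-0.17, adjusted p = 0.0033) and OSGIN1 (-0.25, adjusted p = 0.040), the last lost in all 6 fits without a library (-0.28 to -0.22). GPX2 passed there with no filter (-0.26, adjusted p = 1.8e-07) and with only the groups compared (-0.27, adjusted p = 1.8e-04). In USP18 cells 8 of the 9 differed, beside 26.6%, with 7 lower and SLC7A11 higher with CP14 (0.16, adjusted p = 0.048). The SLC7A11 call was lost without the 1st or 2nd library of either group (0.12 to 0.15), with RLE size factors (adjusted p = 0.054), by DESeq2 (0.061) and with the replicate block (0.050). GPX2 (-0.58) and OSGIN1 (-0.59) differed most, and TXN (-0.11, adjusted p = 0.040) was lost in 5 of the 6 fits. SRXN1 did not differ by the test (log2 0.00, 95% interval -0.07 to 0.08). At 1 µM 0 of the 9 differed between CP14 and CP18 by edgeR, beside 0.0178% of all genes with the empty vector and 0.0772% with USP18, with 1 and 0 at an unadjusted p under 0.05 and 0 and 0 called by DESeq2. GCLC had the largest difference there, -0.11 in empty-vector cells (95% interval -0.18 to -0.03).

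CP18 and CP2 at 5 µM gave 0 of the 9 by edgeR in empty-vector cells, beside 0.0653% of all genes, and in USP18 cells, beside 0.0832%, with 0 and 4 at an unadjusted p under 0.05 and 0 and 0 called by DESeq2. The widest of the intervals were for GPX2, with 0.07 in empty-vector cells (95% interval -0.1 to 0.25) and 0.16 in USP18 cells (-0.01 to 0.34). SRXN1 in USP18 cells was at -0.14 (95% interval -0.21 to -0.06, adjusted p = 0.23) and passed with no filter on low counts (adjusted p = 0.044). In USP18 cells the libraries of the 2 compounds did not overlap for 8 of the 9 genes, beside 15.1% of all genes, and in empty-vector cells for 0 of the 9, beside 8.63%.

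**Figure D4:**
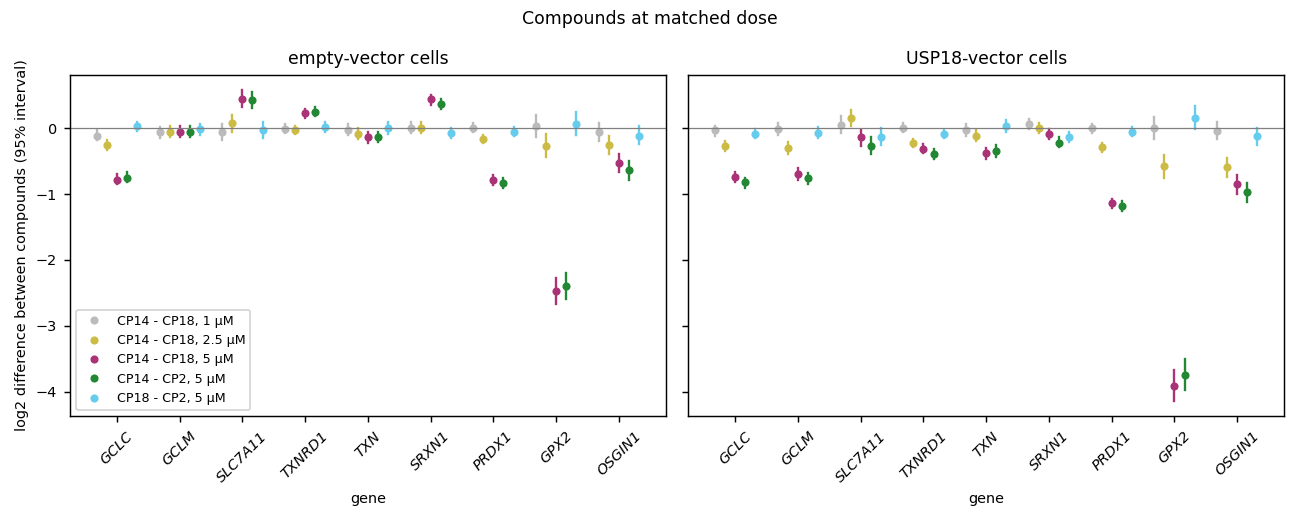
Log2 difference between compounds at the same dose for each of the 9 genes, with 95% intervals, in empty-vector and USP18 cells. The differences of CP14 from the other compounds at 5 µM reach -2.47 and -3.91 for GPX2, and those between CP18 and CP2 lie near 0.

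Neighbouring doses of a compound were compared without the vehicle libraries. The step of CP14 from 2.5 to 5 µM changed 7 of the 9 in empty-vector cells, beside 57.4% of all genes, and 7 in USP18 cells, beside 59.9%. GPX2 fell by 2.30 and 3.48 on the log2 scale, PRDX1 by 0.60 and 0.86, and GCLC by 0.49 and 0.51. In USP18 cells the TXNRD1 step (-0.10) lost its call without the 1st library at 2.5 µM (-0.07) or the 2nd at 5 µM (-0.08). It was also lost with only the groups compared (-0.09, adjusted p = 0.064). For OSGIN1 the step in USP18 cells was -0.08, running from -0.24 to 0.05 over fits without a library and passing the test without the 3rd library at 5 µM (-0.24, adjusted p = 0.0046).

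From 1 to 2.5 µM of CP14 2 of the 9 changed in empty-vector cells, beside 10.1%, GPX2 at -0.50 and SRXN1 at 0.15, the latter lost without the 3rd library at 2.5 µM (0.13). In USP18 cells 7 did, beside 24.4%, with GPX2 at -0.73 and OSGIN1 at -0.67 the largest, and SLC7A11 at 0.20 was lost without the 1st or 3rd library at 1 µM (0.18 and 0.15) or the 1st at 2.5 µM (0.16). From 2 to 5 µM of CP2 6 changed in USP18 cells, beside 15.5%, OSGIN1 rising by 0.36 and SRXN1 by 0.33 and GPX2 falling by 0.41. In empty-vector cells 0 did by edgeR, beside 5.55%, with 5 at an unadjusted p under 0.05. DESeq2 called 3, beside 1245 of 58870 genes. The edgeR count was 2 without the 1st and 1 without the 3rd library of 5 µM CP2, and 2 with the replicate number as a block.

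For CP18 from 1 to 2.5 µM 1 of the 9 changed in empty-vector cells, beside 4.63%, SRXN1 at 0.15, and 0 without the 1st library at 1 µM or the 1st or 3rd at 2.5 µM. There 5 of the 9 had an unadjusted p under 0.05. With only the groups compared 5 passed, beside 1141 of 15050 genes. The libraries of the 2 doses did not overlap for 9 of the 9, beside 23.0% of all genes. In USP18 cells 0 changed by edgeR, beside 0.0119%, with 2 at an unadjusted p under 0.05 and 0 by DESeq2. From 2.5 to 5 µM 0 changed by edgeR in empty-vector cells, beside 0.445%, and in USP18 cells, beside 0.689%, with 0 and 1 at an unadjusted p under 0.05 and 0 and 0 by DESeq2.

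Ordered by mean level over the 18 groups, neighbours mostly overlapped in the ranges of their 3 libraries. GPX2 ran from 363 CPM (1 µM CP14, empty-vector cells) to 13.9 CPM (5 µM CP14, USP18 cells), a ratio of 26.1, and 12 of its 17 neighbouring pairs overlapped. The 5 lowest groups, from CP18 at 5 µM and CP2 at 5 µM through CP14 at 2.5 µM in USP18 cells to CP14 at 5 µM in empty-vector and then USP18 cells, were each set apart from the next. PRDX1 ran from 1004 to 443 CPM, and its lowest groups were 5 µM CP14 in USP18 cells, then in empty-vector cells, then 2.5 µM CP14 in USP18 cells at 802 CPM and in empty-vector cells at 853 CPM, again each set apart.

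TXNRD1 put all 9 USP18 groups (means 2616 to 3428 CPM) above all 9 empty-vector groups (1765 to 2158 CPM), with the 2 groups of 5 µM CP14 next to each other in the middle of the order and not overlapping. SLC7A11 ran the other way: its 9 empty-vector groups had means of 373 to 511 CPM and its 9 USP18 groups 269 to 341 CPM, with 15 of 17 neighbouring pairs overlapping. GCLC ran from 324 to 177 CPM, and its 3 lowest groups, 2.5 µM CP14 in USP18 cells and 5 µM CP14 in empty-vector and then USP18 cells, were each set apart. GCLM ran from 229.8 CPM (5 µM CP2, USP18 cells) to 135 CPM (5 µM CP14, USP18 cells), with 14 of 17 neighbouring pairs overlapping. TXN varied least, from 441 to 328 CPM (ratio 1.34), and only its lowest group, 5 µM CP14 in USP18 cells, was set apart. SRXN1 ran from 669 CPM (5 µM CP14, empty-vector cells) to 431 CPM, and OSGIN1 from 71.7 CPM to 33.2 CPM, with 14 and 15 of 17 pairs overlapping.

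The genes did not move as a block. Over the means of 18 groups, which share the line, the sequencing and the vector contrast, Pearson's r of log2 CPM was 0.93 for GCLC with PRDX1 and 0.93 for PRDX1 with GPX2. Without the 2 groups of 5 µM CP14 these values were 0.62 and 0.15. GCLC and GCLM had r = 0.99 over the 9 USP18 groups and 0.28 over the 9 empty-vector groups. SLC7A11 and TXNRD1 had r = -0.80 over 18 groups, yet 0.79 within the 9 empty-vector groups and 0.31 within the 9 USP18 groups. The points over all 18 groups include the vector contrast, in which TXNRD1 was higher and SLC7A11 lower.

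Among all genes tested with a mean of at least 1 CPM, those with the closest pattern over the 18 group means included, for GPX2, PRDX3 (r = 0.99, and 0.91 without the groups of 5 µM CP14). For PRDX1 they were NLRP2, SRSF3 and PEBP1 (each 0.99, and 0.84 to 0.9 without those groups). For TXNRD1 they were TNFRSF21, TBPL1 and ZDHHC21 (each 0.99, with and without), and for SLC7A11 INAVA (0.97), MARVELD1 (0.96) and B3GNT9 (0.96), each 0.96 without. GCLC was closest to PFKFB3, PPM1G and REEP4 (each 0.97, and 0.82 to 0.88 without those groups) and GCLM to ZMPSTE24 (0.94), PQBP1 (0.94) and FARSB (0.93), with 0.9, 0.79 and 0.73 without. TXN was closest to EBAG9, NME1 and PARK7 (each 0.93, and 0.84 to 0.9 without), SRXN1 to ANXA7 (0.95), DNLZ (0.93) and THOC5 (0.92), with 0.91 to 0.94 without, and OSGIN1 to ZNF576 (0.97), NOC2L (0.96) and ERI3 (0.94), with 0.92 to 0.96 without.

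Other genes of the same pathways were described by counts and medians with 5 µM CP14. Of 25 other NRF2 targets, all tested, 16 fell and 5 rose in empty-vector cells (median log2 -0.38), and 19 fell and 5 rose in USP18 cells (median -0.60). NQO1, a quinone reductase, went from a mean of 1757 to 1184 CPM in empty-vector cells (log2 -0.57, adjusted p = 1.5e-24) and from 1364 to 616 CPM in USP18 cells (-1.15, adjusted p = 1.6e-36). HMOX1, which degrades heme, rose in both (0.55 and 1.56). ALDH3A1, an aldehyde dehydrogenase, fell by 0.76 and 2.58 on the log2 scale and TKT, the transketolase of the pentose phosphate pathway, by 0.96 and 1.32. Of all genes tested 31.2% fell and 29.7% rose in empty-vector cells, and 33.0% fell and 32.7% rose in USP18 cells.

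Of 27 other glutathione genes 14 fell and 6 rose in empty-vector cells (median -0.15), and 16 fell and 7 rose in USP18 cells (median -0.28). GSR, the glutathione reductase, fell by 0.79 and 1.31 on the log2 scale, and CHAC1, which degrades glutathione, rose by 2.81 and 1.68. Of 16 other thioredoxin and peroxiredoxin genes 15 were tested, PRDX2 being near 0. Of these 7 fell and 3 rose in empty-vector cells (median -0.08), and 9 fell and 2 rose in USP18 cells (median -0.22). PRDX3, the mitochondrial peroxiredoxin, fell by 0.81 and 1.24.

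Of 12 regulators and partners of NRF2 9 rose and 2 fell in empty-vector cells (median 0.24), and 7 rose and 3 fell in USP18 cells (median 0.45). NFE2L2, the NRF2 gene, was 109, 107 and 105 CPM with vehicle and 121, 118 and 118 CPM with 5 µM CP14 in empty-vector cells (log2 0.15, adjusted p = 7.8e-05). In USP18 cells its log2 fold change was 0.03 (95% interval -0.03 to 0.1). KEAP1 fell by 0.38 and 0.67, while MAFF, a small MAF protein, rose by 2.18 and 1.91 and SQSTM1, which binds KEAP1, by 1.25 and 1.32. No fall of NFE2L2 passed the test with this dose. NRF2 protein was not measured, and the part of NFE2L2 in the changes of the 9 genes was not tested.

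Of 16 targets of ATF4 and stress regulators, a list that shares CHAC1 with the glutathione genes, 14 rose and 1 fell in empty-vector cells (median 1.41), and 15 rose and 1 fell in USP18 cells (median 1.46). ATF3 rose by 2.87 and 3.53, DDIT3 by 2.39 and 3.60, and TRIB3 by 2.38 and 2.59. SLC7A11 is also known as an ATF4 target, and it rose with the empty vector and fell with USP18. Of 6 genes for selenocysteine insertion, which GPX2 and TXNRD1 need, 4 rose in empty-vector cells (median 0.37), and 3 rose and 1 fell in USP18 cells (median 0.33). SEPHS2, which makes the selenium donor, rose by 0.51 and 0.66.

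**Figure D5:**
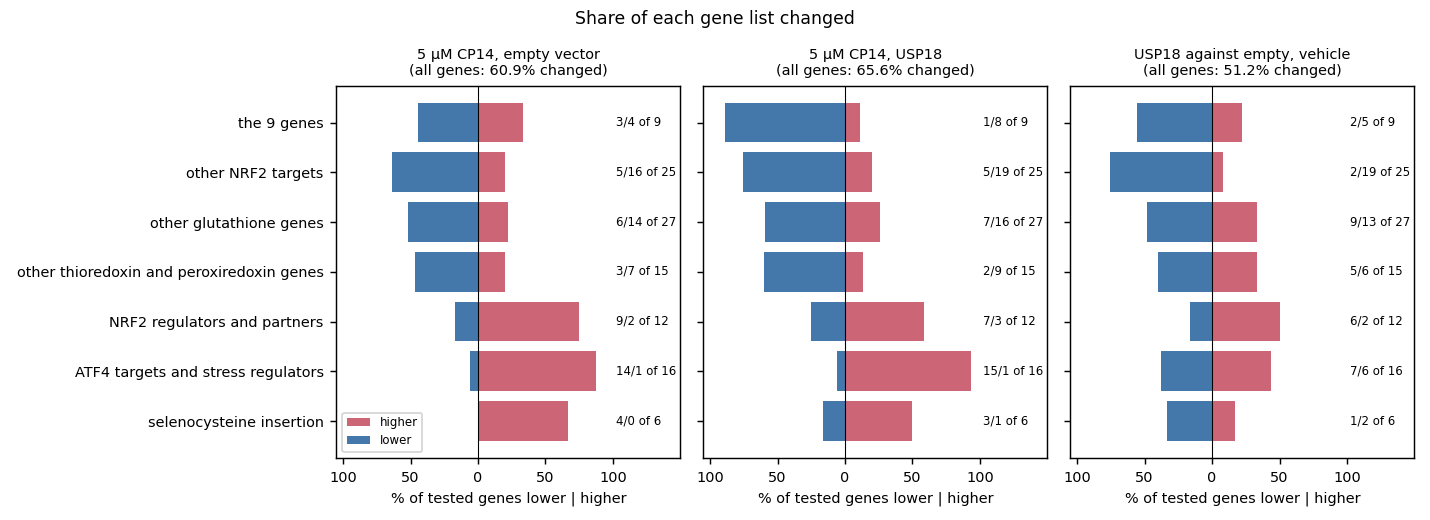
Percent of the tested genes of each list that were higher (bars to the right) or lower (bars to the left) with 5 µM CP14 in empty-vector cells, with 5 µM CP14 in USP18 cells, and in USP18 against empty-vector cells with vehicle, with the counts beside the bars. Other NRF2 targets lie mostly to the left, with 16, 19 and 19 of 25 lower, and ATF4 targets and stress regulators to the right with CP14, with 14 and 15 of 16 higher.

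The same lists were read for USP18 against empty-vector cells with vehicle, where 4314 of the 16836 genes tested were lower and 4306 higher. Of the 25 other NRF2 targets 19 were lower and 2 higher (median -0.45), with AKR1C1 at -1.78, AKR1B10 at -1.77 and HMOX1 at -1.58, while NQO1 was at -0.37. Of the glutathione genes 13 were lower and 9 higher (median -0.10). SLC3A2, the heavy chain that SLC7A11 needs at the membrane, was 586, 581 and 621 CPM in empty-vector cells and 208, 207 and 210.3 CPM in USP18 cells (log2 -1.52 ± 0.0547, SE). Both chains of the cystine carrier were thus lower in USP18 cells.

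The other lists gave 6 lower and 5 higher of the thioredoxin and peroxiredoxin genes (median -0.03), with NXN at -0.62, and 2 lower and 6 higher of the regulators (median 0.05), with MAFF at 1.85. NFE2L2 was at -0.04 and did not pass the test. Of the ATF4 targets and stress regulators 6 were lower and 7 higher (median 0.13), with SLC7A5, an amino acid carrier that also pairs with SLC3A2, at -2.04. Of the selenocysteine genes 2 were lower and 1 higher (median 0.03), with SEPHS2 at -0.46. TXNRD1, at 0.82, stood against most NRF2 targets in this contrast.

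The line was checked against markers. All 6 epithelial markers were tested, KRT8 being the most abundant (median 3845 CPM), and EPCAM was low (median 3.59 CPM). Their summed level was 13126 CPM ± 88.6 (SD, n = 3) in empty-vector cells with vehicle, 8781 ± 129.6 in USP18 cells with vehicle, 7767 ± 288 with 5 µM CP14 in empty-vector cells and 6508 ± 130 with 5 µM CP14 in USP18 cells. The markers did not move alike: with 5 µM CP14 the mean of KRT8 was 2187 CPM against 6154 with vehicle (empty vector) and 1330 against 3730 (USP18), while that of KRT7 was 3266 CPM against 1700 and 3384 against 1511, and KRT19 was 4.35 CPM in empty-vector and 26.8 CPM in USP18 cells with vehicle. The part of such shifts in these results was not tested. Of 8 markers of leukocytes, endothelium and fibroblasts 2 were tested, COL1A1 (median 5.93 CPM) and COL3A1, and the 8 summed to 13.6 CPM ± 1.58 (SD, n = 3) in empty-vector cells with vehicle, 8.39 ± 0.158 in USP18 cells with vehicle, and 6.58 ± 0.279 and 4.33 ± 0.117 with 5 µM CP14. CD3E had 0 counts in all 54 libraries, and PTPRC and DCN had a median of 0. In bulk RNA, fewer cells expressing a gene and less of its RNA per cell cannot be told apart. Mitochondrially encoded genes took 3.26% ± 0.0972 and 2.99% ± 0.288 of counts with vehicle in empty-vector and USP18 cells and 2.89% ± 0.132 and 2.77% ± 0.0549 with 5 µM CP14. With 1 µM CP18 they took 2.59% ± 0.417 in empty-vector and 3.74% ± 0.294 in USP18 cells. The part of this shift in the interactions of 1 µM CP18 was not tested.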

How the data were processed

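Libraries were made from poly(A) RNA per the labels, while the study's methods text names ribosomal RNA removal. The deposited values are expected counts per gene, which the authors made with RSEM after alignment with STAR to hg38. The submitters' processing notes give cutadapt 1.18, STAR 2.7.0f and RSEM 1.3.1. The expected counts were rounded to whole numbers. Genes were kept by edgeR's filterByExpr (minimum count 10, minimum total 15), scaled by TMM and tested by the quasi-likelihood test of edgeR 4.0.16 in R 4.3.3, in 1 fit of 54 libraries and 18 groups (36 residual degrees of freedom). P-values were adjusted by the Benjamini-Hochberg method over all 16836 genes tested, in each of 45 comparisons. A share of all genes is that of the fit of 54 libraries at an adjusted p under 0.05, unless another is named. Shares of all genes at an unadjusted p were not counted. A gene changed at an adjusted p under 0.05 and was past 2-fold also with an absolute log2 fold change over 1. SE is the log2 fold change divided by the square root of the F statistic, and intervals are 95%.

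The 9 genes and the lists were chosen with earlier results of these data known. Of each list the genes named are among the 4 changed genes of largest absolute log2 fold change with a mean CPM of at least 1, and NFE2L2, KEAP1, NQO1, HMOX1 and USP18 were always read. Some genes were named after their values were seen, among them PRDX2. For each of the 9 genes, the genes of highest Pearson correlation over the group means were named, and a few genes that these rules reach were left out of the text. Of 58870 gene IDs 58517 were in GENCODE release 44. Replicate pairs of a group differed beyond counting noise (chi-square per gene 1.79 to 10.4, 54 pairs). Deviations of log2 CPM from the group mean were correlated between libraries of different groups. Those of equal replicate number were no more alike than others (median r -0.00101 and -0.000459). A fit with the replicate number as a block gave 16, 37, 13, 7, 43 and 32 calls where the fit without it gave 16, 37, 14, 7, 44 and 30, in the order vehicle comparisons in empty-vector and USP18 cells, interactions, vector, compound pairs and dose steps. Alternatives were RLE size factors, 2 other filters, DESeq2 1.42.0, that block, fits of fewer libraries and fits that dropped each library once. In the last, the genes tested and the trended dispersion were kept from the fit of all libraries, and the 2 libraries left in a group were taken to vary like the other groups.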

Additional observations from a re-analysis of the deposited data

Results flagged for a closer look

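The responses below differed between USP18 and empty-vector cells by the interaction test, as log2 fold change in USP18 cells minus that in empty-vector cells. With 5 µM CP14 the values were -0.56 for GCLM, -0.53 for SLC7A11, -0.54 for TXNRD1, -0.19 for TXN, -0.42 for SRXN1, -0.33 for PRDX1 and -1.49 for GPX2. All 7 were past the threshold in every fit that left out 1 library of the 4 groups. With 2.5 µM CP14 the value was -0.20 for TXNRD1. With 1 µM CP14 the values were 0.19 for GCLC, 0.25 for SRXN1 and 0.44 for OSGIN1, and with 1 µM CP18 they were 0.20 for SRXN1, 0.16 for PRDX1 and 0.42 for OSGIN1. At 1 µM the calls of GCLC and PRDX1 were each lost in 10 of 12 fits without a library. With 3 libraries in a group, single libraries were not tested for standing apart.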

How the results depend on the processing

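No result changed direction with its call under any alternative. The median log2 fold change of the 9 genes stayed within 1 SD of the replicate spread under every alternative other than leaving out a library. Of calls of single genes, 927 were kept, 35 lost and 68 gained over those alternatives, and 855 were kept, 117 lost and 19 gained over fits without a library, each call counted once per alternative fit. The cause of these shifts was not tested. With 3 libraries in a group, log2 changes of about 0.1 to 0.2 sit near the threshold.

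The number of the 9 genes changed moved by over 1.5 times as follows. With no filter beyond a count above 0 it became 1 for 1 µM CP14, 1 µM CP18 and 5 µM CP18 in empty-vector cells, 1 for the interactions of 5 µM CP2 and 5 µM CP18, 2 for that of 2.5 µM CP14, 1 for CP18 against CP2 in USP18 cells, 2 for CP18 from 1 to 2.5 µM and for CP2 from 2 to 5 µM in empty-vector cells, and 1 for CP18 from 2.5 to 5 µM in USP18 cells. With at least 10 counts in every library it became 2 for the interaction of 2.5 µM CP14 and 3 for CP2 from 2 to 5 µM in empty-vector cells. By DESeq2 it became 1 for 1 µM CP14 in empty-vector cells, 2 for the interactions of 5 µM CP2 and 2.5 µM CP14, 5 for that of 1 µM CP14 and 3 for CP2 from 2 to 5 µM in empty-vector cells. With the replicate block it became 2 for that last step. In fits of 12 libraries it became 1 for 2 µM CP2 and 1 µM CP14 and 0 for 5 µM CP18 in empty-vector cells, 5 for 1 µM CP14 and 2.5 µM CP18 in USP18 cells and 5 for the interaction of 1 µM CP14. With only the groups compared it became 1 for 5 µM CP2, 2 for 1 µM CP14, 1 for 2.5 µM CP18 and 0 for 5 µM CP18 in empty-vector cells, 5 for 1 µM CP14 and 6 for 2.5 µM CP18 in USP18 cells, 5 for the interaction of 1 µM CP14, and 5 for CP14 and 5 for CP18 from 1 to 2.5 µM in empty-vector cells. The fit of 12 libraries was not made for compound pairs and dose steps. Calls over all genes moved as well. With only the groups compared they went from 34 of 16836 to 179 of 15175 for 1 µM CP14 in empty-vector cells. For 5 µM CP18 in those cells they went from 2188 of 16836 to 425 of 15005.

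Without a library in turn, the number ran from 0 to 3 for 5 µM CP2 and for 5 µM CP18 in empty-vector cells and for 1 µM CP14 and 1 µM CP18 in USP18 cells. It ran from 1 to 2 for the interaction of 2.5 µM CP14 and from 0 to 4 for that of 1 µM CP18. For the dose steps in empty-vector cells from 1 to 2.5 µM, it ran from 1 to 2 for CP14 and from 0 to 1 for CP18. For the step of CP2 from 2 to 5 µM in those cells it ran from 0 to 2. The median ran from -0.17 to -0.09 for 2.5 µM CP14 and from -0.52 to -0.42 for 5 µM CP14 in USP18 cells, from 0.08 to 0.17 for the interaction of 5 µM CP2, from -0.19 to -0.08 for CP14 against CP2 at 5 µM in empty-vector cells, and from -0.39 to -0.30 for CP14 from 2.5 to 5 µM in USP18 cells.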
